A study of Mus musculus with 6 samples.

Results

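The genes of the synapse organizer that joins parallel fibres to Purkinje cells were followed in the mouse cerebellum: the delta receptor gene Grid1, the cerebellin genes Cbln1, Cbln2, Cbln3 and Cbln4, and the neurexin genes Nrxn2 and Nrxn3. All probes that the platform annotation assigns to one of these 7 genes were taken, which gave 15 of the 45281 probes on the array, for 6 of the 7 genes. Grid1 had no probe in that annotation and was not analysed here. The samples were the cerebella of 3 wild-type (WT) males and 3 male littermates of genotype Sp4neo-/-, a hypomorphic state with a lowered supply of the transcription factor Sp4, all at postnatal day 21 and of the strain background Black Swiss X CD1. Each animal was read on 1 Illumina bead array, so every group mean below rests on 3 arrays.

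Neurexins sit in the presynaptic membrane of the parallel fibre, the axon of the granule cell. Cerebellins are secreted proteins of the C1q family that bind neurexins on one side of the cleft and a delta receptor in the Purkinje cell spine on the other, and this bridge holds the synapse together. Cbln1 is the granule cell cerebellin that is best known for this role, and mice without it lose many parallel fibre synapses. Sp4 is one of the Sp zinc-finger factors, which bind GC boxes in promoters, and the comparison of the genotypes asks which transcripts depend on it.

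Since Sp factors bind the GC box, whose core is GGGCGG, the stretch around the annotated gene start was searched for this core on both strands, with overlapping matches counted apart. Windows of 300 bases, 250 before and 50 after the start, came from the RefSeq promoter table of assembly GRCm38.p6. They were used for 3 of the 7 genes (Cbln3, Cbln4 and Nrxn3, with 5 windows in all). Any windows of these genes on 1 chromosome were left out of the search, so a gene missing here may still have a window. The 3 windows below are shown because Cbln4 had the largest difference between the genotypes, Cbln3 gave no signal above background, and this Nrxn3 window is the only one of its 3 with a match. They run 5′ to 3′ on the gene's strand, with the matches in capitals.
Cbln4 chr2:172043417-172043716 (minus strand): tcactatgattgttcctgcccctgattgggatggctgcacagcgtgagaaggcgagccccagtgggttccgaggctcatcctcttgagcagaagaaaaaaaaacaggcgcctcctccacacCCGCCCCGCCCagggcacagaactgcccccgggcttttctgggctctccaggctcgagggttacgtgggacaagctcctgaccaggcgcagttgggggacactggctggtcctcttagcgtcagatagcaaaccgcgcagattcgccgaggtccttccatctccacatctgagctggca
Cbln3 chr14:55884207-55884506 (minus strand): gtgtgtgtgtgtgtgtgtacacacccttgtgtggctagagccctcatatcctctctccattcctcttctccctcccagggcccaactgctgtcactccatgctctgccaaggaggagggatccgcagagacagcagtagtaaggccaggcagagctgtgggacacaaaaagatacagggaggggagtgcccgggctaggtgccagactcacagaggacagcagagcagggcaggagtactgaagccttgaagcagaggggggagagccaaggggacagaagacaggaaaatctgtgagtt
Nrxn3 chr12:88953140-88953439 (plus strand): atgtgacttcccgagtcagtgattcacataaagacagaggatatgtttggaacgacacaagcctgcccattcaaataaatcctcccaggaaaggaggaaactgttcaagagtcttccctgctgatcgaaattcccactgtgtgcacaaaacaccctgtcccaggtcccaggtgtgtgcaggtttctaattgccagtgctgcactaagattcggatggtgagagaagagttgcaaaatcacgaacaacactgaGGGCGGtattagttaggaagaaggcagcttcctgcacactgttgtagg
The Cbln4 window held 2 matches, both on the opposite strand and sharing a base, and the Nrxn3 window held 1 on the gene's strand. The Cbln3 window and the other 2 Nrxn3 windows held 0. Among 32851 promoter windows of the same length, 35.7% held at least 1 match and 19.5% held at least 2, so that the core is a common sequence. A match describes these letters only and is not evidence of binding.

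The targeted gene had lower mean values in the hypomorph on each of its probes. The groups did not overlap on Sp4 probe ILMN_1259753, which was above background on all 6 arrays. On Sp4 probe ILMN_1259753 the normalized log2 intensity was 7.34 ± 0.48 for wild type and 6.04 ± 0.26 for the hypomorph (SD, n = 3), without passing limma's adjusted threshold. Probe ILMN_1253376 was above background on all 3 wild-type arrays and on 0 hypomorph arrays, at least 1.5-fold lower there. It was tested only through the group in which it was high, so its separation is not counted. Normalized log2 intensity here means the deposited signal after background correction, an added offset of 16, quantile normalization and a log2 transform, and a probe counts as above background on an array where its detection p is under 0.05. For this bound, each hypomorph array was given whichever was larger, the Sp4 signal itself or the weakest signal among its detected probes. Between 18656 and 20135 probes were above background per array. Testing with limma covered the 19515 probes that met this on 3 or more arrays, among them 10 of the 15 probes for cerebellins and neurexins. Of the listed markers with a probe, 15 of 16 for granule cells (among them Gabra6 and Slc17a7) and 9 of 13 for Purkinje cells (among them Pcp2) were above background on all 6 arrays. The granule cell marker Pax6 and the Purkinje cell markers Calb1, Pcp4 and Car8 were so on 0 arrays, and Foxp2 on at most 2.

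None of the 10 tested probes passed limma's test between the genotypes. The number past a Benjamini-Hochberg adjusted p of 0.05 was 0, against 0 of 19515 probes (0%) on the whole array, and the lowest adjusted p among the 10 was 0.975. At an unadjusted p under 0.05 the number was again 0, where 5.31% of all tested probes passed. The genotype groups overlapped at each of the 10 probes, whereas they did not overlap at 10.5% of all tested probes. Differences were evenly split in sign, 5 higher and 5 lower in the hypomorph, with a median log2 difference of 0.01 beside 0.00084 over all tested probes. The median size of the difference, regardless of sign, was 0.091 on the log2 scale for the 10 probes and 0.13 for all tested probes. A p that misses the threshold does not show that levels were equal, and the 95% intervals given below say how large a difference these arrays allow. In RNA of a whole tissue, fewer cells of a type and less RNA per cell cannot be told apart.

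**Figure D1:**
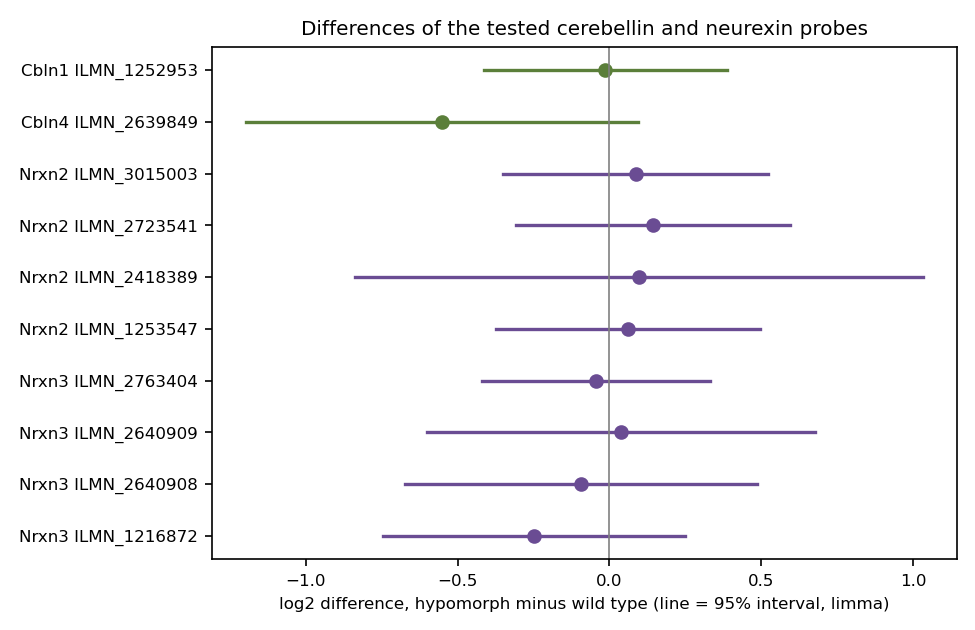
Each point is the log2 difference, hypomorph minus wild type, of a tested cerebellin (green) or neurexin (purple) probe, and each line its 95% interval from limma (3 arrays per genotype). All 10 lines cross 0; the Cbln4 point lies farthest from it, at -0.55, and the Nrxn2 probe ILMN_2418389 has a wide line, from -0.84 to 1.03.

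Among the ligands, Cbln1 gave a strong and steady signal. The deposited intensity of its only probe, ILMN_1252953, was 32155, 39080 and 34197 on wild-type arrays 1, 2 and 3 and 32296, 35378 and 36280 on hypomorph arrays 1, 2 and 3. In these intensities the lowest and the highest value both came from wild type, with all 3 hypomorph values between them. After normalization hypomorph 1 was lowest, at 14.92 (log2), next to wild type 1 at 14.93. The mean normalized log2 intensity was 15.11 ± 0.24 for wild type and 15.10 ± 0.16 for the hypomorph (SD, n = 3), which differ by -0.01 (SE 0.17). The 95% interval of this difference, -0.41 to 0.39, corresponds to a hypomorph level of 0.751 to 1.31 times that of wild type. Shifts in either direction within this interval remain possible. The interval is not a limit of detection for the adjusted test. The sign of so small a value was not stable: it was 0.12 without wild type 2 and 0.077 without hypomorph 1. The highest signals of any probe on the arrays were 46334 to 51195, above those of Cbln1. Whether the Cbln1 probe responds in full at so high a signal was not tested.

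Cbln4, a secreted cerebellin that also binds neurexins, was dim and had the largest difference of the group. Its probe, ILMN_2639849, read 56.7, 29.1 and 59.1 (deposited intensity) on wild-type arrays 1, 2 and 3 and 41.8, 19.4 and 11.0 on hypomorph arrays 1, 2 and 3. The probe was above background on wild type 1, wild type 3 and hypomorph 1, just enough arrays to be tested, and on neither array numbered 2 nor on hypomorph 3. The groups overlapped, because wild type 2 lay below hypomorph 1. The normalized log2 intensity was 5.996 ± 0.43 for wild type and 5.45 ± 0.40 for the hypomorph (SD, n = 3). The difference was -0.55 on the log2 scale (SE 0.28), with a 95% interval from -1.20 to 0.10, and it did not pass (limma, unadjusted p = 0.0843, adjusted p = 0.975). With the offset of 16 used here, this interval corresponds to a hypomorph level of 0.436 to 1.07 times that of wild type. In the authors' processed values the difference shrank to -0.20 (SE 0.12), and with arrays weighted by their quality it was -0.80 (SE 0.23, adjusted p = 0.287). It lay at -0.34 with an offset of 50, so its size followed the treatment of low signals.

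The profile of Cbln4 over the 6 arrays was set beside those of marker lists after its values had been seen. Oligodendrocyte markers, 10 of whose 12 listed genes were tested, had mean deviations of 0.37, -0.22 and 0.19 (log2, from each gene's mean over 6 arrays) on wild-type arrays 1, 2 and 3 and of 0.15, -0.26 and -0.24 on hypomorph arrays 1, 2 and 3. The list for interneurons of the molecular layer and Golgi cells, with 8 of 12 tested, had 0.14, -0.18 and 0.10 in wild type and 0.063, -0.057 and -0.065 in the hypomorph. Astroglia markers, with 11 of 12 tested, had 0.30, -0.22 and 0.011 in wild type and 0.29, -0.30 and -0.086 in the hypomorph. These 3 of the 8 marker lists ran below their own mean on wild type 2, hypomorph 2 and hypomorph 3, the arrays on which Cbln4 was not above background, and above it on the others. The median hypomorph minus wild type difference was -0.21 for the 10 oligodendrocyte markers, all of them negative. It was -0.11 for the 8 interneuron markers, 6 of them negative, and -0.11 for the 11 astroglia markers, 9 of them negative, and 0 genes of these lists passed the adjusted threshold. Their part in the Cbln4 result was not tested. By the rule set for the member with the smallest p, the named genes with the most similar profile were Insc, Itgb3bp and Barx2, whose root mean square distance from Cbln4 over the 6 arrays was 0.0757, 0.0884 and 0.0932 on the log2 scale. At a looser limit of 0.3, wider than these distances, 937 named probes lay near Cbln4. What the likeness over 6 arrays means was not tested.

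Cbln2 and Cbln3 could not be compared between the genotypes. Cbln3 is a granule cell cerebellin that in mice is secreted together with Cbln1, and Cbln2 is a cerebellin known mostly from other brain regions. Deposited intensities of the Cbln3 probes lay between -3.64 and 14.5 for ILMN_2632532 and between -21.4 and 10.9 for ILMN_1242272, and the lowest detection p of any array was 0.173 and 0.212. The Cbln2 probes lay between -10.5 and 19.6 for ILMN_1216226 and between -20.6 and 20.5 for ILMN_2894369, with lowest detection p-values of 0.142 and 0.136. All 4 probes were therefore not above background on any of the 6 arrays. A probe that is silent does not show that its transcript is absent: in the same cerebella, all probes of Calb1, Pcp4 and Car8, genes known for high expression in Purkinje cells, were also above background on 0 arrays. Whether the 4 cerebellin probes can report their transcripts was not tested.

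**Figure D2:**
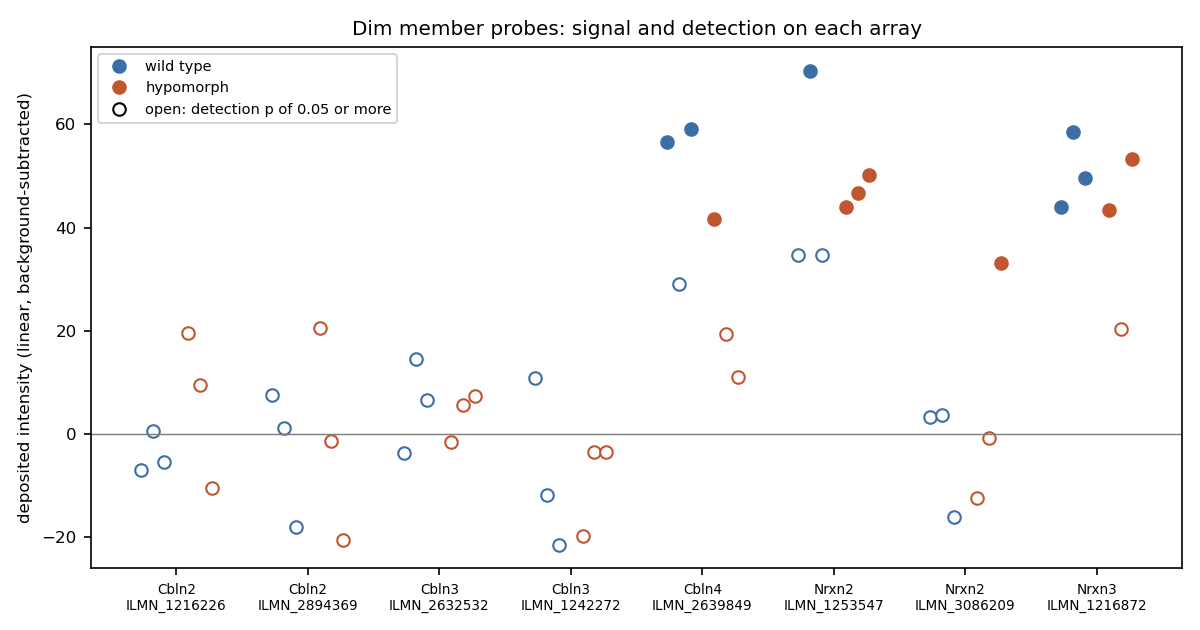
Deposited intensity (linear, background-subtracted) on each of the 6 arrays for the 8 cerebellin and neurexin probes that stayed below 100, in wild type (blue) and hypomorph (red); filled points have a detection p under 0.05 and open points do not. All Cbln2 and Cbln3 points are open and scatter around 0, while Cbln4 has filled points on 2 wild-type arrays and 1 hypomorph array.

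Among the presynaptic receptors, Nrxn2 was measured on 4 of its 5 probes and had slightly higher means in the hypomorph on each, without passing. Its brightest probe, ILMN_3015003, read 12.74, 13.33 and 12.80 (normalized log2 intensity) on wild-type arrays 1, 2 and 3 and 13.09, 12.94 and 13.10 on hypomorph arrays 1, 2 and 3. The hypomorph values lay close together inside the wild-type range, which was opened by wild type 2. The difference was 0.09 (log2, SE 0.19) with a 95% interval from -0.35 to 0.52. Probe ILMN_2723541 read 9.85, 10.49 and 10.05 in wild type and 10.12, 10.40 and 10.31 in the hypomorph, which differ by 0.14 (SE 0.19, interval -0.31 to 0.60). Here again wild type 1 was lowest and wild type 2 highest. Probe ILMN_2418389 had the widest spread of all 10, with 8.86, 10.42 and 9.80 in wild type and 9.35, 10.21 and 9.82 in the hypomorph. Its range over the arrays was 1.56 on the log2 scale, and its log2 difference of 0.10 (SE 0.40) turned to -0.32 without wild type 1 and rose to 0.46 without wild type 2.

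The remaining Nrxn2 probes were dim. Probe ILMN_1253547 was above background on all 3 hypomorph arrays but on only wild type 2 among the controls, with detection p-values of 0.0534 and 0.0545 on wild type 1 and wild type 3, just outside the limit. Its normalized values were 5.74, 6.30 and 5.70 in wild type and 5.95, 5.94 and 6.03 in the hypomorph, which differ by 0.06 (SE 0.19). As on the brightest probe, wild type 2 was highest and the other wild-type arrays lay below all hypomorph arrays. The root mean square distance between both profiles was 0.0515 on the log2 scale. Probe ILMN_3086209 was above background on hypomorph 3 alone, with a detection p of 0.0492, and was not tested. The sign of the Nrxn2 differences depended on single arrays for some probes. Without wild type 1, ILMN_3015003 stood at -0.021 and ILMN_1253547 at -0.023, and the latter stood at -0.047 without wild type 3. Probe ILMN_2723541 stayed positive with any 1 array left out, at 0.0053 or more.

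All 4 tested Nrxn2 probes and Cbln1 had their highest value on wild type 2, as did Nrxn3 probe ILMN_1216872. Of the 4 Nrxn2 probes, 3 had their lowest on wild type 1. Over all tested probes, 20.3% were highest on wild type 2 and 19.4% lowest on wild type 1. The granule cell markers, 15 of whose 16 listed genes were tested, had mean deviations of -0.20, 0.25 and -0.01 (log2) on wild-type arrays 1, 2 and 3 and of -0.16, 0.01 and 0.11 on hypomorph arrays 1, 2 and 3. This list was also lowest on wild type 1 and highest on wild type 2. So was 1 other of the 12 lists examined, the neurexin partners described below (-0.063 and 0.077). Markers of neighbouring brain regions, with 4 of 13 tested, were highest on wild type 2 too, at 0.22. Between the genotypes 9 of the 15 tested granule cell markers were higher and 6 lower in value. Their median difference was 0.01 (log2), and 0 passed the adjusted threshold. Purkinje cell markers, with 9 of 16 tested, had 4 higher and 5 lower values and a median of -0.05. The likeness of Cbln1, Nrxn2 and these lists was noticed after the values had been seen, and its source was not tested.

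**Figure D3:**
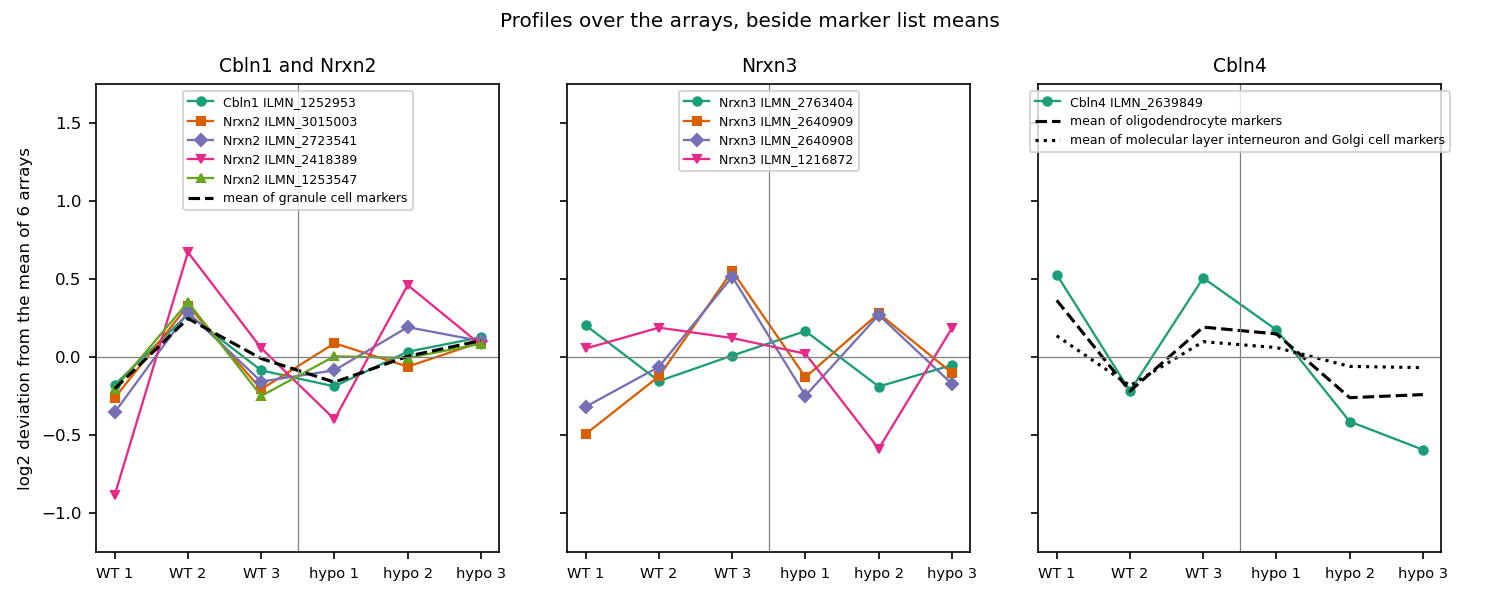
Log2 deviation from the mean of the 6 arrays, by array (3 wild type left of the line, 3 hypomorph right of it), for Cbln1 and Nrxn2 probes with the granule cell marker mean (dashed), for Nrxn3 probes, and for Cbln4 with the means of oligodendrocyte (dashed) and interneuron and Golgi cell (dotted) markers. Cbln1, the Nrxn2 probes and the granule cell mean all peak on wild type 2, as does Nrxn3 probe ILMN_1216872. Of the 4 Nrxn3 probes, 2 peak on wild type 3.

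Nrxn3 was tested on all 4 of its probes, which fell into different patterns over the arrays. The brightest, ILMN_2763404, read 11.48, 11.12 and 11.28 (normalized log2 intensity) on wild-type arrays 1, 2 and 3 and 11.44, 11.09 and 11.22 on hypomorph arrays 1, 2 and 3. Both genotypes spanned much the same range. The difference was -0.04 (log2, SE 0.16), and its 95% interval of -0.42 to 0.33 was the narrowest of the 10 probes. Probe ILMN_2640909 read 8.04, 8.41 and 9.09 in wild type and 8.40, 8.81 and 8.43 in the hypomorph, which differ by 0.04 (SE 0.27). Probe ILMN_2640908 read 8.05, 8.31 and 8.89 in wild type and 8.12, 8.64 and 8.20 in the hypomorph, which differ by -0.09 (SE 0.25). Both of these probes were lowest on wild type 1 and highest on wild type 3, with hypomorph 2 in second place. The signs of these small differences changed with single arrays, to -0.20 for ILMN_2640909 without wild type 1, to 0.14 for ILMN_2640908 without wild type 3, and to 0.047 for ILMN_2763404 without wild type 1. Their profiles lay 0.0956 apart (root mean square, log2), but 0.426 and 0.394 from that of the brightest probe. The annotation gives these 3 probes the same transcript accession, and neurexin genes are known to make many transcript forms. Which forms each probe reads was not tested, since probe sequences were not used here.

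The fourth Nrxn3 probe, ILMN_1216872, is annotated to a different transcript record and was dim. It read 5.97, 6.11 and 6.04 in wild type and 5.94, 5.33 and 6.10 in the hypomorph, and it was above background on every array except hypomorph 2. The wild-type values were tightly grouped, and hypomorph 2 alone stood low. The log2 difference of -0.25 (SE 0.21, 95% interval -0.74 to 0.25) rested on that array, being -0.018 without it.

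**Figure D4:**
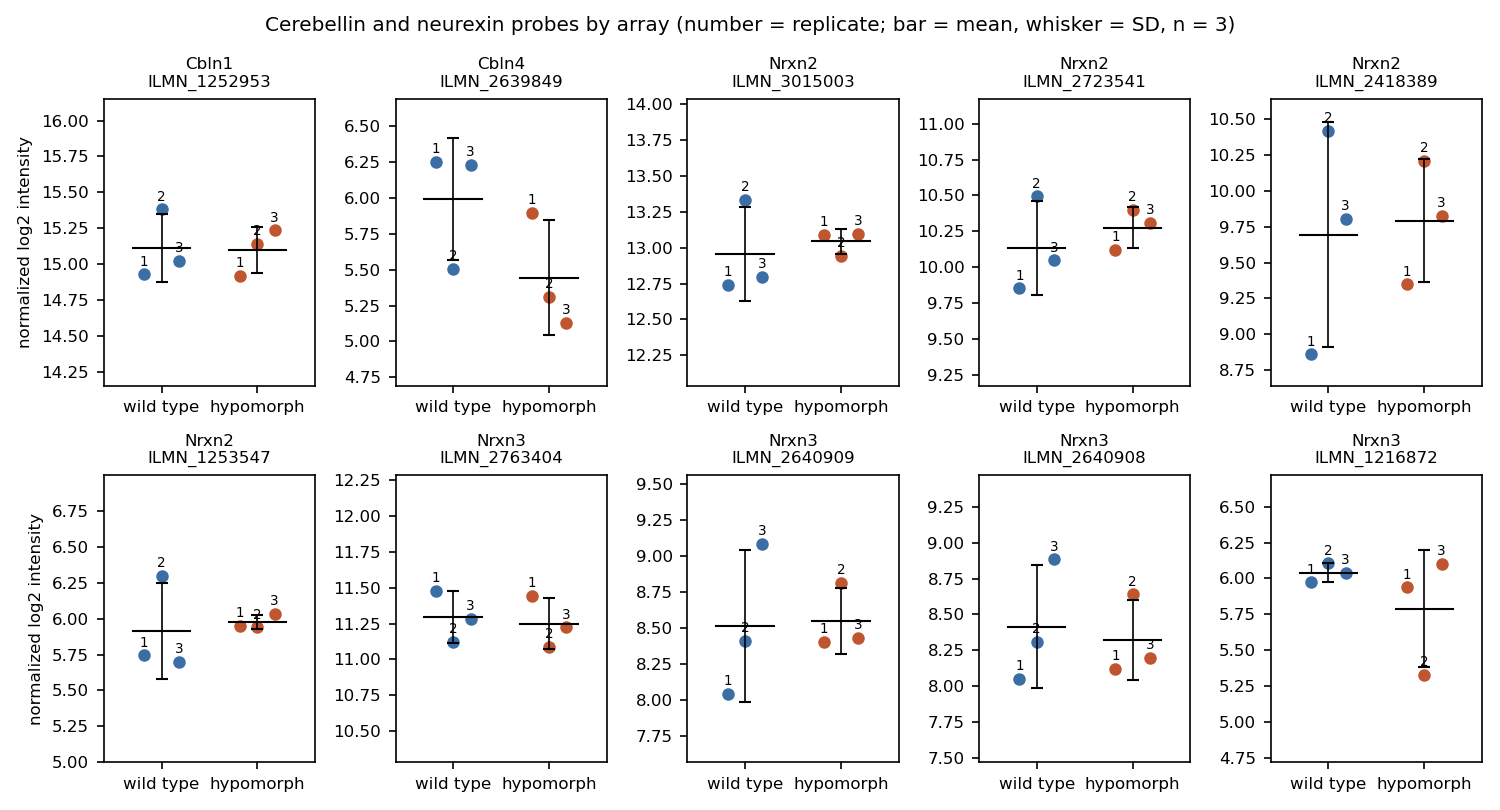
Normalized log2 intensity of each tested cerebellin and neurexin probe on the 3 wild-type (blue) and 3 hypomorph (red) arrays, numbered by replicate; the bar is the mean and the whisker the SD, and each panel spans 2 log2 units around its own midpoint. Cbln4 has the lowest hypomorph values relative to wild type, and in each of the 10 panels the groups overlap.

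No partner of this complex passed the same test. Of other neurexin partners (adaptors, and ligands such as neuroligins and Lrrtm proteins), 16 were tested. Of these, 7 were higher and 9 lower in value, with a median of -0.01 (log2 difference). The smallest p-values belonged to the vesicle calcium sensor Syt1 at 0.27 (SE 0.13), the dystroglycan gene Dag1 at 0.30 (SE 0.22) and the neurexin adaptor partner Lin7c at -0.40 (SE 0.31). Of postsynaptic scaffolds and signalling genes, 6 were tested, with 4 higher and 2 lower values and a median of 0.08. Shank1, a scaffold of the postsynaptic density, ranked first by p. It was above background on all 3 hypomorph arrays and on 0 wild-type arrays, at least 1.15-fold higher in the hypomorph. Shank1 was tested only through the group in which it was high, so its p is not read as a result. Its separation is left out of the count of groups that do not overlap. The 4 higher values and the median of this list include Shank1. The other 2 by rank, Becn1 at 0.09 (SE 0.15), an autophagy protein linked to delta receptor signalling, and the scaffold Dlg2 at -0.08 (SE 0.13), were near 0.

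No related organizer outside the complex passed either. Of other C1q-type organizers, their adhesion receptors and classical C1q, 7 genes were tested, 4 of them higher and 3 lower in value, with a median of 0.08 (log2 difference). The adhesion receptor Adgrb2 stood at 0.31 (SE 0.19), the complement gene C1qc at 0.15 (SE 0.17) and Adgrb3, a receptor of C1q-like proteins at climbing fibre synapses, at 0.10 (SE 0.12). C1ql1, the climbing fibre counterpart of Cbln1, was on the array but was not tested, since it was above background on too few arrays. Other synaptic adhesion families counted 27 tested genes, 13 higher and 14 lower, with a median of -0.02. Nrcam, a cell adhesion molecule of axons, stood at -0.25 (SE 0.12), Flrt3 at 0.25 (SE 0.19) and Lrrc4 at -0.41 (SE 0.32). In these 4 lists together 0 of the 56 genes tested passed the adjusted threshold. Without Shank1, the genotype groups did not overlap for 4 of 55 genes, beside the 10.5% of all tested probes given above, which includes probes tested through 1 genotype alone.

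**Figure D5:**
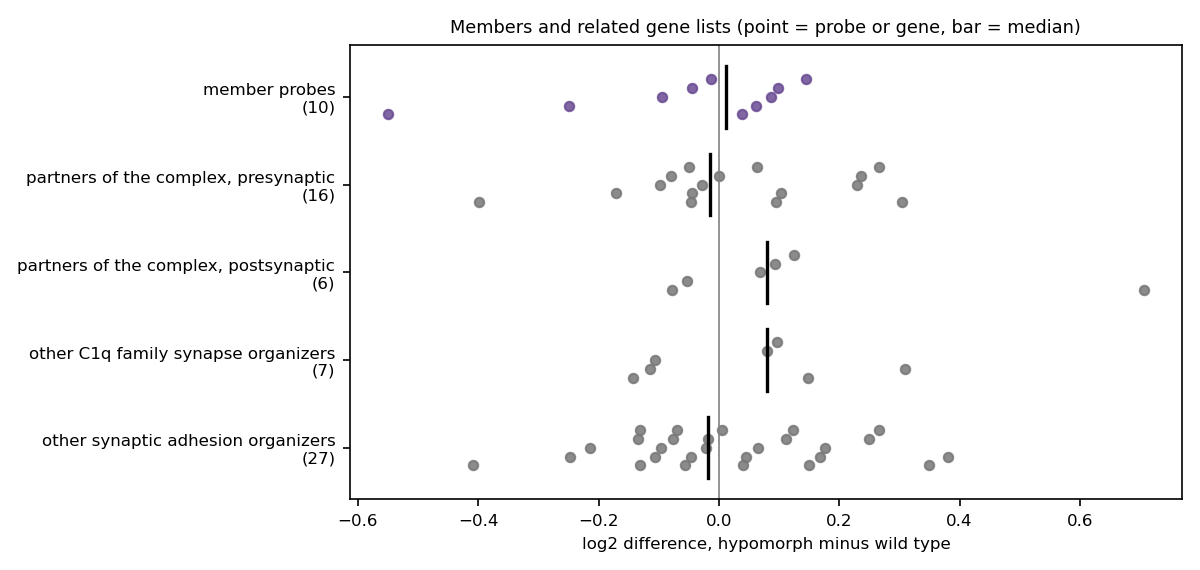
Log2 difference, hypomorph minus wild type, of the 10 tested cerebellin and neurexin probes (purple) and of the tested genes of 4 related lists (grey, brightest probe per gene); bars mark medians and the number tested is in brackets, and points are spread vertically only to be visible. Medians lie between -0.02 and 0.08, with Cbln4 at the left and Shank1 at the right.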

How the data were processed

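Biotin-labelled RNA of 6 cerebella (3 per genotype) was hybridised to Illumina arrays, per the labels' protocols. The submitters' processing notes name BeadStudio. The authors deposited linear, background-subtracted intensity values that are not normalized between arrays, with a detection p-value per probe and array, per the file headers. A second table the authors deposited holds processed intensity values whose medians all lie near 161, in the same rank order within each array; no source used here states its normalization, and it served as an alternative. Background correction from detection p-values, an offset of 16, quantile normalization and log2 (neqc) and the test of hypomorph minus wild type (lmFit, eBayes) were made with limma 3.58.1 in R 4.3.3, on probes whose detection p was below 0.05 on 3 or more arrays, with Benjamini-Hochberg adjustment over all 19515 probes. Quantile normalization hides a shift of most transcripts, and the offset shrinks folds of dim probes. The number of arrays limits the precision. A gene in a list was taken by its brightest probe. The platform annotation gave 34885 probes 1 gene symbol, 18 several and 10378 none. The fit was tested on simulated data.

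The members, lists and tests were chosen with earlier results of these data known. Genes were named by rule: all members, Sp4, the 3 list genes with the smallest p in each related list, and the 3 nearest profiles to the member with the smallest p. Marker genes and C1ql1 are examples picked with their values in view. The alternatives were the processed values, an offset of 50, array weights, a replicate block, each array left out, scaling by medians, skipping background correction, no detection filter or one on all 6 arrays, and eBayes with trend and robust settings. Leaving out both arrays numbered 2 was added after seeing the data.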

Additional observations from a re-analysis of the deposited data

How the results depend on the processing

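The number of cerebellin and neurexin probes past the adjusted threshold stayed 0 under all 16 alternatives, with a lowest adjusted p of 0.287 (Cbln4, array weights). Over the whole array, the count of 0 probes became 1 without background correction, 5 with an offset of 50, 8 with the authors' processed values, 3 with the stricter filter, 8 with a variance trend and 13 with array weights; leaving out 1 array gave 0 to 2. Of 157 values of single member probes under the alternatives, 137 kept their sign. Array weights turned Cbln1 to 0.095 and Nrxn3 ILMN_2640909 to -0.32, and median scaling turned the latter to -0.057. Without both arrays numbered 2, Cbln1 stood at 0.10, Nrxn3 ILMN_1216872 at 0.015 and Nrxn3 ILMN_2640909 at -0.15. Leaving out each array in turn gave log2 differences from -0.10 to 0.12 for Cbln1, -0.80 to -0.39 for Cbln4, and for Nrxn2 from -0.047 to 0.25 (ILMN_1253547), -0.32 to 0.46 (ILMN_2418389), 0.0053 to 0.33 (ILMN_2723541) and -0.021 to 0.27 (ILMN_3015003). For Nrxn3 the ranges were -0.40 to -0.018 (ILMN_1216872), -0.28 to 0.14 (ILMN_2640908), -0.20 to 0.32 (ILMN_2640909) and -0.14 to 0.047 (ILMN_2763404). The cause of these changes was not tested. The stricter filter left 7 member probes and removed Cbln4.

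With the replicate number as a block, the count over all probes was 2 and that of members 0, and Cbln4 stayed at -0.55 (limma, unadjusted p = 0.0366, adjusted p = 0.507). Deviations of same-numbered arrays correlated at 0.44, 0.40 and 0.06 over probes, each array best with its own number. The third value was close to the 0.04 of hypomorph 1 with wild type 3. Deviations were taken from each genotype's mean, so these correlations are not independent. The labels do not say that a number marks a litter, and pairing was not tested. Signal over background limits the reading of Cbln2, Cbln3 and Cbln4.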
